A study of Homo sapiens with 6 samples.

Results

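Amino acid transporters are the membrane proteins that bring amino acids into the cell, and 8 of their genes are described here in CHL-1 cells, a line established from a human melanoma: SLC7A5, SLC3A2, SLC7A11, SLC1A5, SLC1A4, SLC38A1, SLC38A2 and SLC7A1. The members were named by gene symbol and not by any measured value, though with earlier results of these data known. They were found through the RefSeq transcript rows that map to those symbols, taking for each gene the row with the highest depth summed over the 3 tables. All 8 had a row in at least 1 table, of 11227 named genes in all, and 7 had a row in every table. Ribosome profiling, which sequences the messenger fragments covered by ribosomes, was done in 3 groups of 2 libraries. The first is the untreated parental line. The second carries a CRISPR edit of SNORD50A/B, genes of small nucleolar RNAs that guide RNA modification. The third received the proline analog AZC (L-azetidine-2-carboxylic acid) at 10 mM together with the proteasome inhibitor MG132 at 20 µM, for 20 minutes. No group here received AZC alone, MG132 alone or a vehicle, so the parts of AZC and MG132 cannot be told apart. All groups share the culture medium with serum and a lysis buffer that holds ribosomes in place with cycloheximide. The sources used here do not say whether the edited line is a single clone, and a line edited at a control site was not analysed here.

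Many, though not all, amino acid carriers work as exchangers or as pumps driven by the sodium gradient. Exchangers such as SLC7A5 swap an internal amino acid for an external one, so they depend on pumps such as SLC38A2 that load the cell with small neutral amino acids. When amino acids run short, uncharged tRNA activates the kinase GCN2 (gene EIF2AK4), translation slows and the transcription factor ATF4 is made, which raises transcription of many carriers and amino acid enzymes. Azetidine-2-carboxylic acid is taken for proline by the protein synthesis machinery and its incorporation misfolds proteins.

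Each condition has 1 table that pools its libraries, so no spread between replicates exists, no p-value is given, and every difference is between single tables. The values say how much depth lay on a messenger, not why: messenger amount and ribosomes per messenger cannot be told apart, nor can fewer cells and less RNA per cell. A table splits each transcript into 100 bins of 5′ UTR, 200 coding bins and 100 bins of 3′ UTR. The coding level used below is the depth summed over a gene's coding bins per 1000000 of coding depth in the table. Coding depth was 405563578 (parental), 286912163 (AZC + MG132) and 497068041 (CRISPR). Coding lengths were not used here, so levels are compared between tables for 1 gene and never between genes. A gene was compared where its coding depth was above the lower quartile of rows in both tables, and 2-fold is a limit of size, not a test. The label of a melanoma line was checked on markers. SOX10, a neural crest transcription factor, stood at coding levels of 383, 327 and 346 in the parental, AZC + MG132 and CRISPR tables. S100B stood at 28.3, 37.9 and 32.9, and MLANA was listed at 0 in the coding bins. Of 10 melanoma and melanocyte markers, 8 had a row in at least 1 table. The pigment enzyme genes TYR and TYRP1 had no row. Another pigment enzyme gene, DCT, had a row in each table, at 3.96, 6.54 and 15.9, and was not compared. S100A1, MIA and MITF also had a row in each table, and PMEL in the parental and AZC + MG132 tables only. Of 20 markers of keratinocytes, fibroblasts, endothelium and blood, 3 had a row, with summed levels of 1.33 to 3.65 per table.

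None of the 7 members compared was 2-fold or more higher or lower in the treated cells, where 3.43% of 7295 genes were (1.08% higher and 2.34% lower). The same held for the edited line, where 2.79% of 7560 genes were past that limit (1.2% higher and 1.59% lower). In the treated cells SLC38A2 was the member with the highest ratio, at 1.28-fold the parental level, and SLC7A5 the lowest, at 0.711-fold. SLC1A5 in the edited line was at 0.503-fold, just inside the limit, and SLC38A1 at 1.23-fold.

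**Figure D1:**
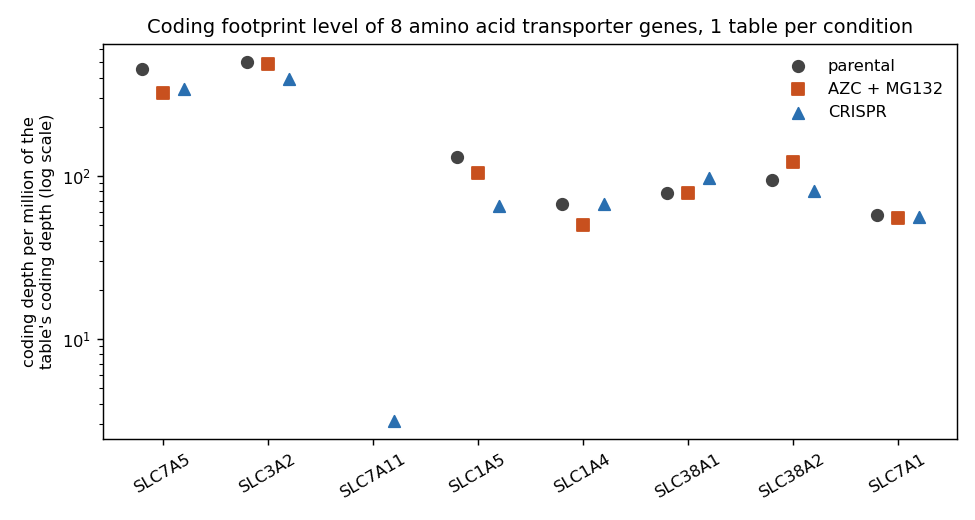
Coding level (coding depth per 1000000 of the table's coding depth, log axis) of each of the 8 genes in the parental (circle), AZC + MG132 (square) and CRISPR (triangle) tables; each point is 1 table, with no replicate. SLC1A5 stands at 129.9, 104.0 and 65.4 in that order, SLC38A2 is highest in the treated cells at 121.1, and SLC7A11 has a single point at 3.14; heights of different genes are not per length.

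SLC7A5 and SLC3A2 encode the light and the heavy chain of one heterodimer. SLC7A5 (LAT1) is the subunit that exchanges large neutral amino acids such as leucine, and SLC3A2 (CD98hc, 4F2hc) is the chaperone chain that takes it to the plasma membrane. The coding level of SLC7A5 (NM_003486, chromosome 16) was 451.4 in the parental, 320.9 in the AZC + MG132 and 341.7 in the CRISPR table. It was highest in the parental table, with log2 ratios of -0.49 for the treated cells and -0.40 for the edited line. Of all genes compared, 14.1% had a lower ratio in the first comparison and 15.6% in the second. These comparisons share the parental table, so a high parental value enters both. The coding level of SLC3A2 (NM_001012662, chromosome 11) was 499.0, 481.4 and 392.0 in the same order. Its log2 ratio was -0.05 in the treated cells and -0.35 in the edited line. The direction for SLC3A2 in the treated cells depended on the bins, at 0.23 from the first 100 coding bins and -0.20 from the last 100. SLC7A5 was lower in both sets of bins, at -0.58 and -0.37. In the edited line both chains were lower in both sets, SLC7A5 at -0.66 and -0.21 and SLC3A2 at -0.20 and -0.43, so which chain was the lower one turned with the bins.

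SLC7A11 (xCT) is the light chain that pairs with SLC3A2 to import cystine in exchange for glutamate, and it feeds glutathione synthesis. Its row (NM_014331, chromosome 4) was listed in the CRISPR table only, with a coding depth of 1560, a coding level of 3.14, and depth in 25 of 200 coding bins. That lies under the minimum of 2926.5 for this table, and 13.4% of the rows there had less coding depth. The covered bins formed 5 separate runs, the longest of 8 bins, and the 5 highest bins held 29.5% of the coding depth. The sources used here do not say how rows were selected, and the lowest total depth of any listed row was 161 to 182. No ratio is given for SLC7A11, and it enters none of the counts.

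SLC1A5 and SLC1A4 encode ASCT2 and ASCT1, sodium-dependent exchangers of small neutral amino acids; ASCT2 is known as a glutamine carrier of proliferating cells. The coding level of SLC1A5 (NM_005628, chromosome 19) was 129.9 in the parental, 104.0 in the AZC + MG132 and 65.4 in the CRISPR table. The edited line was the lowest of the tables, at a log2 ratio of -0.99 to the parental line, and 1.65% of genes had a lower ratio there. The first 100 coding bins gave -1.15 and the last 100 gave -0.87, so the lower level was present in both. The other rows of SLC1A5, which share reads with the chosen row and differ from it in their 5′ part, gave -0.86 (NM_001145144) and -0.87 (NM_001145145). Bins with any depth were 173 of 200 in the CRISPR table against 200 in the parental table. The same was seen over all genes, where a median of 69.0% of coding bins was covered in the edited and 90.5% in the parental line, and the part of this coverage in the ratio was not tested. In the treated cells the ratio of SLC1A5 was -0.32, and 23.1% of genes were lower.

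The coding level of SLC1A4 (NM_003038, chromosome 2) was 66.6, 49.7 and 66.8 in the same order. It was lower in the treated cells, at a log2 ratio of -0.42, and at the same level in both untreated tables when all coding bins were summed. In the edited line the first and the last part of the coding sequence differed, at -0.47 for the first 100 bins and 0.31 for the last 100. Over all genes compared there, the median gap between such parts was 0.36 on the log2 scale. The sum over all coding bins, 0.0042 on the log2 scale, therefore averages a lower first and a higher last stretch. The second row of SLC1A4 (NM_001193493) was at -0.84 in the treated cells and 0.08 in the edited line.

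Promoter sequences were read for the members because many carrier genes are known targets of ATF4. SLC1A4 and SLC1A5 are the members with a match to the core of the amino acid response element in the promoter windows searched. This element is the site through which ATF4 and its partners act on amino acid genes. The letters searched were TGATGCAA on both strands, which reads TTGCATCA on the other strand, in windows from 250 bases before to 50 after a gene start in RefSeq (GRCh38.p14). Of 8 members 7 had a window, 13 windows in all, and SLC7A11 had none. The matches were 1 in each of these genes. Over all genes, 0.866% of 35116 windows of this length hold the letters, and 1.08% of 27305 genes have such a window. Each is printed 5′ to 3′ on the strand of the gene, with the match in capitals; the SLC1A4 stretch is chr2:64989381-64989410 on the plus strand and that of SLC1A5 chr19:46784893-46784922 on the minus strand.
SLC1A4: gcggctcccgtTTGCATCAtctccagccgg
SLC1A5: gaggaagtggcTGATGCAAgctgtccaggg
A match of letters is not a measured site, and footprints do not read transcription.

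SLC38A1 and SLC38A2 encode SNAT1 and SNAT2, sodium-driven pumps of small neutral amino acids. SNAT2 carries system A transport, which takes proline and is known to increase on amino acid starvation. The coding level of SLC38A2 (NM_018976, chromosome 12) was 94.7 in the parental, 121.1 in the AZC + MG132 and 81.1 in the CRISPR table. It was the only one of the 7 members above its parental level in the treated cells, at a log2 ratio of 0.36, and 17.4% of genes had a higher ratio. The first and the last 100 coding bins gave 0.33 and 0.36, and the value lay between 0.30 and 0.39 over 12 other settings. Some of these settings, such as another minimum, cannot change the ratio of a gene. Its ratio in the edited line was -0.22. The coding level of SLC38A1 (NM_030674, chromosome 12) was 78.7, 78.6 and 97.2 in the same order. The parental and treated values lay side by side, and the edited line was higher, at 0.30, with 0.31 and 0.29 from the first and the last 100 bins. The pair thus differed in which table was highest, SLC38A2 in the treated cells and SLC38A1 in the edited line.

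SLC7A1 (CAT1) is a carrier of arginine and lysine whose messenger is known for a regulated leader. Its coding level (NM_003045, chromosome 13) was 57.2, 54.9 and 55.5 in the parental, AZC + MG132 and CRISPR tables. The ratios were -0.06 and -0.04, the narrowest range of the 7 members over the 3 tables. Both turned sign between the first and the last 100 coding bins, with 0.08 and -0.16 in the treated cells and -0.15 and 0.04 in the edited line.

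**Figure D2:**
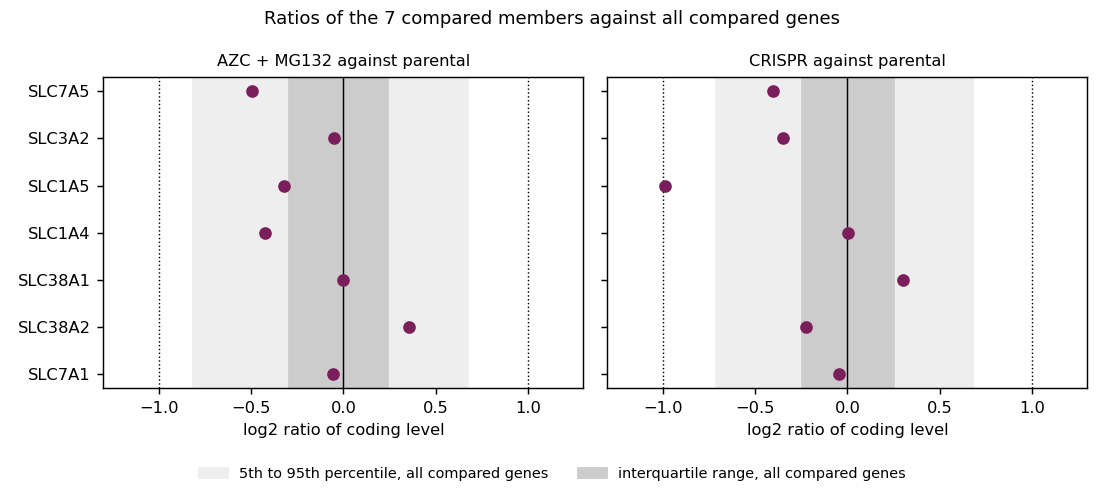
Log2 ratio of coding level for the 7 compared members (points) in the treated cells (left) and the edited line (right), both against the same parental table; light and dark bands span the 5th to 95th percentile and the interquartile range of all compared genes, and dotted lines mark 2-fold. SLC1A5 in the edited line, at -0.99, lies outside the light band, which starts at -0.71; in the treated cells all 7 points lie inside it.

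Set side by side, 6 of the 7 members were below their parental level in the treated cells, where 52% of all genes were, and the members' median was -0.06 against -0.02 over all genes. SLC38A1, SLC3A2 and SLC7A1 count among the 6 only by ratios of 0.06 or less in size, and the sign of each turns with the bins or the scaling. For the edited line 5 of 7 were below, with 49.5% of all genes, and the median was -0.22 against 0.0048. Between the edited line and the treated cells, without the parental table, 4 of 7 were higher and 3 lower in the edited line. Of all genes 48.8% were lower there. The largest of these ratios were -0.67 for SLC1A5, -0.58 for SLC38A2 and 0.43 for SLC1A4. None was 2-fold or more, where 7.08% of 7206 genes were (4.18% higher and 2.9% lower). Of the 4 higher members, SLC7A5, SLC7A1 and SLC1A4 turned below 0 with the first 100 coding bins, at -0.09, -0.22 and -0.22. The first and the last 100 coding bins gave the same sign for 4 of 7 members in the treated cells, as for 61.9% of all genes. They did so for 5 of 7 in the edited line, as for 60.7% of all genes. Over all genes the ratios from these sets of bins had a median gap of 0.38 in the treated cells and 0.36 in the edited line. Their Pearson correlations were 0.327 and 0.205.

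The place of ribosomes along the coding sequence was compared next, by the start share, which is the mean depth of the first 20 coding bins over the mean of all 200. Over 7073 genes compared in all tables its median was 1.42 for AZC + MG132 and 0.93 for the parental line. Among the members it was higher in the treated cells than in the parental table for 6 of 7, as for 79.4% of all genes. SLC7A1 stood at 0.54 in the parental and 1.502 in the treated cells, a log2 shift of 1.48 that 88.3% of genes lay below. That size depended on the window, with 0.90 from 10 bins and 0.50 from 40 bins. SLC38A2 stood at 0.89 in the parental and 1.80 in the treated cells, and SLC1A5 at 0.70 and 1.35. SLC38A1 stood at 1.16 and 1.81, SLC1A4 at 0.59 and 0.78, and SLC3A2 at 0.36 and 0.57. SLC7A5 went the opposite way, from 0.58 to 0.45, and 11.1% of genes had a lower shift. Its direction turned when the window was widened to 40 bins, with a shift of 0.06.

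The start share of some members depended on the transcript row. SLC3A2 has 4 rows that differ at their 5′ end, and across them it was 0.28 to 0.79 for the parental line and 0.36 to 1.48 for AZC + MG132, higher in the treated cells in each row. For SLC1A5 the direction in the treated cells turned with the row, since NM_001145144 stood at 0.71 in the parental and 0.65 in the treated cells, and NM_001145145 at 0.92 and 1.02.

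In the edited line the start share was above the parental value for all 7 members, where 54.1% of all genes were. SLC38A2 stood at 1.78 against 0.89, SLC38A1 at 1.92 against 1.16, and SLC7A1 at 0.87 against 0.54. SLC1A5 stood at 1.09 against 0.70, SLC1A4 at 0.83 against 0.59, SLC3A2 at 0.48 against 0.36 and SLC7A5 at 0.66 against 0.58. The median log2 shift was 0.63 over the members and 0.07 over all genes, whose interquartile range was -0.51 to 0.54. Coding bins were covered more sparsely in the edited line, at a median of 69.0% over all genes against 90.5% in the parental line. The part of this coverage in the start share was not tested. The count of 7 holds for the chosen rows. The other rows of SLC1A5 were lower in the edited line, at 0.47 against 0.71 (NM_001145144) and 0.85 against 0.92 (NM_001145145). The second row of SLC1A4 was lower too, at 0.72 against 1.101. The number above 0 was 6 with a window of 10 bins and 7 with 40 bins, and SLC7A5 was the exception at 10 bins, with -0.15. The 7 members are single values from 1 pair of tables, and the treated cells share the parental table of this comparison. Between the edited line and the treated cells, 3 of 7 members had the higher start share in the edited line, as did 25.3% of all genes. That count depended on the window, with 4 from 10 bins and 0 from 40 bins.

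At the other end, the stop share was taken from the last 20 coding bins in the same way. It was lower in the treated cells for 6 of 7 members, where 63.7% of all genes were. SLC7A1 stood at 1.61 in the parental and 0.80 in the treated cells, SLC38A1 at 1.72 and 1.05, and SLC7A5 at 2.05 and 1.41. The exception was SLC1A5, at 1.07 and 1.42. The CRISPR table gave 2.22 for SLC7A1 and 2.14 for SLC7A5. There 3 of 7 members were below the parental value, as were 50.9% of all genes, and 1 of 7 was below the treated cells, as were 38.6%. The highest coding bin of SLC7A5 was bin 199 of 200 in all 3 tables.

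**Figure D3:**
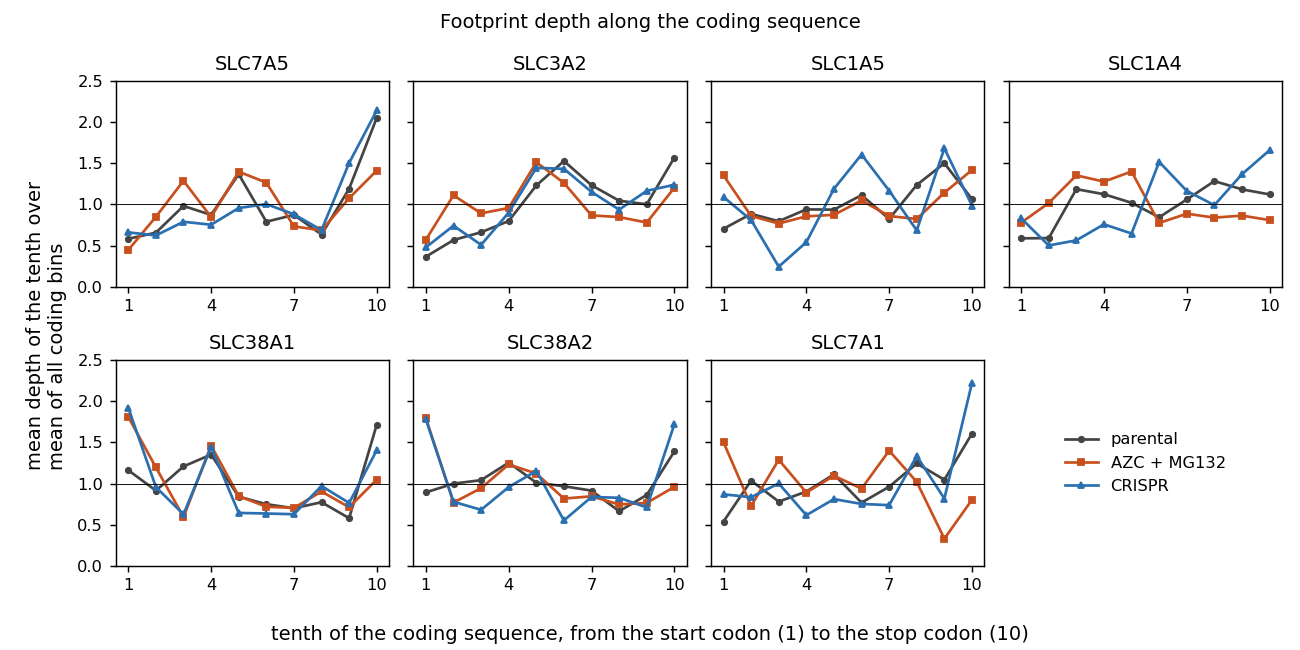
Mean depth in each of 10 stretches of 20 coding bins (x axis, start codon to stop codon) over the mean of all coding bins (y axis) for 7 members in the parental, AZC + MG132 and CRISPR tables. In the first stretch the treated cells lie above the parental line in every panel but SLC7A5, and in the last stretch they lie below it in every panel but SLC1A5.

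Depth in the 5′ UTR was related to coding depth, since ribosomes there can be on upstream reading frames. In the treated cells this percentage was above the parental value in all 7 members, where 80.9% of all genes were; the median over all genes was 10.7% for AZC + MG132 and 5.40% for the parental line. SLC1A5 had the highest value among the members in each table, 30.9% in the parental, 68.7% in the AZC + MG132 and 39.2% in the CRISPR table. In the treated cells 94.3% of genes were lower than SLC1A5. Its 5′ UTR depth per 1000000 of all depth was 34.4 in the parental, 55.8 in the treated and 21.8 in the edited line. In the treated cells its UTR depth was thus higher and its coding depth lower. Over all rows, 5′ UTR bins held 10.0% of depth in the parental, 15.7% in the AZC + MG132 and 10.7% in the CRISPR table. The rise in UTR depth was therefore shared by the whole table, and a rise particular to SLC1A5 was not tested. Most of the SLC1A5 UTR depth lay in the 7th to 9th of 10 equal stretches of the UTR. These held 33.3%, 21.8% and 18.1% of it in the parental table. The other SLC1A5 rows have other leaders, and their values were 9.29% and 0 in the parental and 10.5% and 0.857% in the AZC + MG132 table.

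SLC38A1 followed with 21.6%, 31.2% and 30.8% in the parental, AZC + MG132 and CRISPR tables, and the treated and edited values of this row lay side by side. SLC38A2 had 11.7%, 23.2% and 15.0%. In the treated cells 41.5% of the SLC38A2 UTR depth lay in the 8th stretch of the UTR, where the parental table had 25.8%. The treated cells were the highest of the tables for SLC38A2, and likewise for SLC7A1. SLC7A1 had 5.90%, 13.2% and 6.01%, with the last 3 stretches of the UTR holding most of it. SLC1A4 had 7.04%, 11.1% and 7.00%. The subunits of the heterodimer had the lowest values, SLC3A2 with 1.53%, 4.74% and 1.74% and SLC7A5 with 1.87%, 3.23% and 2.87%. In the edited line 6 of 7 members were above the parental value in their chosen rows, where 51.5% of all genes were, and SLC1A4 was the one below. For SLC1A5 this turned with the row, since NM_001145144 held 7.61% in the edited line and 9.29% in the parental line. Between the edited line and the treated cells, 0 of 7 were higher in the edited line in their chosen rows, where 19.3% of all genes were. The other row of SLC38A1 (NM_001077484) was higher there, at 27.5% against 21.0% in the treated cells.

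**Figure D4:**
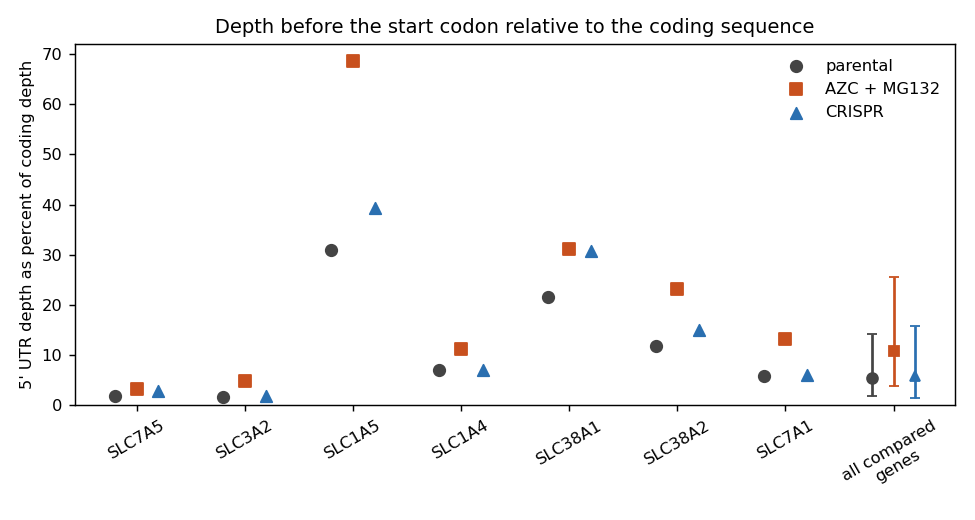
Depth in the 5′ UTR as a percent of coding depth (y axis) for 7 members in the parental (circle), AZC + MG132 (square) and CRISPR (triangle) tables; at the right, the median over 7073 genes with bars from the lower to the upper quartile. The square lies above the circle for every member, and SLC1A5 reaches 68.7%.

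Other genes of amino acid handling were read from fixed lists, as counts and medians. Of 36 further plasma membrane carriers 16 had a row, and 9 could be compared in the treated cells, with 0 past 2-fold and a median of -0.38. Of these, SLC7A2 (CAT2), a second carrier of arginine, stood at 165.0 in the parental and 105.0 in the treated cells, and SLC38A10 at 45.8 and 26.3. SLC6A15, a neutral amino acid carrier that takes proline, stood at 47.5 and 40.6, and SLC6A8, the creatine carrier, at 13.1 and 17.0. Of 8 compared in the edited line 0 were past 2-fold, the median was -0.23, and SLC43A3 was the lowest on the list at -0.90. The list is not confined to carriers of amino acids, as SLC6A8 shows, and the substrate of each gene was not checked here. Lysosomal and mitochondrial carriers had 0 of 13 past 2-fold in either comparison, with medians of -0.20 in the treated cells and 0.23 in the edited line. In that list SLC25A13, a mitochondrial aspartate and glutamate carrier, was at -0.70 and -0.49, and its relative SLC25A12 at 0.38 and 0.81.

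The list named starvation signalling holds kinases, transcription factors and other genes linked to a lack of amino acids. Since AZC and MG132 were given together, changes in these genes cannot be assigned to either, and a lack of amino acids was not tested. In the treated cells 12 genes of the list were compared. Of these, 4 were 2-fold or more higher and 1 lower, with a median of 0.44, beside 1.08% and 2.34% of all genes. ATF4 stood at a coding level of 39.2 in the parental and 885.7 in the treated cells, and DDIT4, an inhibitor of mTORC1, at 9.28 and 65.1. ATF5 at 1.55 and CEBPB at 1.11 on the log2 scale were the others, named after their values were seen. EIF2AK4, the gene of GCN2, was lower, at 26.0 and 10.98, and stood at 12.3 in the edited line, so that the parental table shared by both comparisons was the highest. ASNS, asparagine synthetase and a known ATF4 target, stood at 61.7, 72.4 and 59.2 in the parental, AZC + MG132 and CRISPR tables. GCN1, the partner of GCN2, was at -0.45 in the treated cells. In the edited line 0 of 9 genes of this list were 2-fold or more higher and 1 was lower by that limit. The median was -0.07. ATF4 stood at 61.1 there, a log2 ratio of 0.64 to the parental line, and DDIT4 at 8.58, a ratio of -0.11.

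Proline metabolism had 0 of 10 genes past 2-fold in either comparison, with medians of -0.10 in both. PYCR1, which makes proline, stood at 56.8, 38.7 and 54.3, and EPRS1, the synthetase that charges proline and glutamate tRNA, at 283.7, 331.1 and 257.3. Genes of mTORC1 amino acid sensing had 0 of 16 past 2-fold in the treated cells (median 0.03) and 0 of 18 in the edited line (median 0.20), with NPRL3 at -0.94 in the treated cells and SEH1L at -0.80 in the edited line. Partners and regulators of the carriers had 0 of 9 past 2-fold in either comparison, with medians of -0.03 in both. BSG, a chaperone of monocarboxylate carriers, stood at 508.6, 497.7 and 377.3.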

How the data were processed

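Footprints of ribosomes were measured in 6 libraries, 2 per group, of which 1 per group is labelled as depleted of ribosomal RNA. Per the submitters' processing notes, Bowtie2 and TopHat2 (no versions) and genome hg19 were used; the sources used here do not say how the libraries were joined. The authors deposited log2 values per transcript bin, log2(depth + 1) rounded to 2 decimals. In coding bins the deposited value of the row above is added to the depth; once it was subtracted, 100% of low bins (log2 under 4) were whole numbers within rounding in each table, against 5.23% to 5.80% as deposited. It had made up 3.42% to 5.31% of coding depth. Depth was then rounded to whole numbers. Depth counts bases, so no counting interval was computed. Symbols came from RefSeq (GRCh38.p14, names only), which left 211 to 237 rows per table unnamed; these stayed in the totals. Log2 ratios used a pseudocount of 0.5 on summed depth and were computed with Python 3.11.15, pandas 2.3.3 and numpy 2.4.6; the steps were tested on simulated data. The members and lists were chosen with earlier results of these data known. Genes other than the members were named by rule: per list the 2 with the highest level and the 2 with the largest ratio in each comparison with the parental table, with ATF4, EIF2AK4, ASNS and PYCR1; exceptions are stated, and 1 gene that the rule names is not reported here. Bins of proline codons and levels per coding length, both intended, were not analysed here, since no protein or transcript sequences were used.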

Additional observations from a re-analysis of the deposited data

How the results depend on the processing

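No paired analysis was possible because each group has 1 table without a column per library, and for the same reason no library could be left out. The comparison of bins with proline codons was not run, since no protein sequences were used. Among member ratios, SLC1A5 in the edited line passed 2-fold with the first 100 coding bins (-1.15), without the first 20 (-1.03) and without the 5 highest bins (-1.01); the cause was not tested. SLC1A4 between the edited line and the treated cells was at -0.22 with the first 100 bins against 0.43, and the cause was not tested. The other 269 alternative values stayed on their side of 2-fold and within 1.5 times of the value given. They include rows of other transcripts, an alternative chosen after seeing the data. Part of the 269 could not differ, since another minimum changes only which genes are compared. Choosing rows by their mean share of depth also picked the same rows for the members. Among values under 2-fold, signs turned in 20 cases, mostly near 0, as for SLC38A1, SLC3A2 and SLC7A1 in the treated cells.

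Counts of genes past 2-fold moved with fewer bins or another minimum. Given as higher and lower, they were 79 and 171 in the treated cells, 91 and 120 in the edited line, and 301 and 209 between both. With the first 100 coding bins they were 182 and 381, 225 and 389, and 505 and 442. With the last 100 they were 235 and 332, 263 and 302, and 511 and 473. With a minimum 4 times higher they were 15 and 33, 9 and 20, and 62 and 45. With no minimum they were 313 and 519, 368 and 502, and 732 and 613. With values as deposited, 94 were lower in the treated cells, 45 higher in the edited line, and 190 higher between both. Without the 5 highest bins 203 were lower in the edited line. Of the members' start shares 5 of 42 alternative values moved by over 1.5 times, and of their levels 1 of 44, that of SLC7A11, at 6.12 as deposited.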

Other observations

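Carriers of other substrates were read beside the amino acid carriers. Of 17 compared in the treated cells 0 were past 2-fold, with a median of -0.28. ATP1B1, a beta subunit of the sodium pump, stood at a coding level of 50.9 in the parental, 36.5 in the treated and 119.3 in the edited line, and was the 1 of 16 past 2-fold in the edited line, where the list's median was 0.11. ATP1B3, another beta subunit, stood at 474.2, 415.6 and 664.1. SLC29A1, a nucleoside carrier, was at -0.73 in the treated cells, and SLC39A6, a zinc carrier, at -0.60 in the edited line. Between the edited line and the treated cells, ATP1B1 was at 1.71 on the log2 scale.

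The genes closest to the members' median in both comparisons (-0.06 and -0.22) were PLOD1, AGPAT5 and FAM83D, with distances of 0.012, 0.016 and 0.027 on the log2 scale among 3529 genes. The likeness is over 3 tables only.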
